A study of Saccharomyces cerevisiae with 2 samples.

Results

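The V1 sector of the vacuolar ATPase was described through 8 genes of Saccharomyces cerevisiae in ribosome profiling data: VMA1, VMA2, VMA4, VMA5, VMA7, VMA8, VMA10 and VMA13. They were taken by systematic name as the complete set of V1 subunit genes, 8 of the 6666 coding sequences (CDSs) counted, and all were found in both libraries. Both libraries came from the haploid laboratory strain BY4742, of mating type alpha and with auxotrophic marker deletions, in mid-exponential growth in synthetic medium. The medium received 50 µg/mL cycloheximide, which arrests elongating ribosomes, so every sample shares strain and drug and there is 1 group with 2 replicates. The study used the libraries to look for translated open reading frames in intergenic regions. The labels name no separate cultures, so the spread between replicates, and any p-value set against it, may be technical. Of the markers deleted in this strain, URA3 had 0 reads in either library, LEU2 at most 1 and LYS2 at most 2, whereas HIS3, whose deletion is partial, had 1046 and 116. The CDS tables summed to 23437283 reads in replicate 1 and 2733591 in replicate 2, so 1 read was worth 0.0427 counts per 1000000 CDS reads (CPM) in the first and 0.366 in the second. V1 genes are thus measured with far smaller counting error in replicate 1.

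The vacuolar ATPase is a rotary proton pump that acidifies the vacuole and other compartments of the endomembrane system. Its V1 sector lies in the cytosol and hydrolyses ATP, and its V0 sector lies in the membrane and carries the protons. In yeast the sectors come apart when glucose is withdrawn and join again when it returns. V1 holds a ring of alternating A and B subunits, encoded by VMA1 and VMA2, of which A is catalytic. Peripheral stalks made of E (VMA4) and G (VMA10) hold the ring in place, and D (VMA8) and F (VMA7) form the rotor shaft. C (VMA5) joins the stalks to V0 and is released when the sectors separate, and H (VMA13) restrains the activity of free V1. The complex contains 3 copies each of A, B, E and G, and 1 copy each of C, D, F and H.

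The genes lie on 8 different chromosomes of the R64 assembly, and 2 of them have a layout that affects how reads map to protein. VMA1 (YDL185W, chromosome IV, 126787 to 130002, plus strand) is a single exon of 3216 nt that carries an intein, a protein segment that cuts itself out of the translated precursor and is a homing endonuclease. A search of the translated CDS for the conserved residues at intein ends placed it at codons 284 to 737, which is 454 codons or 42.4% of the coding length. The ribosome reads all 1071 codons, and the mature A subunit keeps 617. The Walker A pattern of nucleotide-binding sites (glycine, any 4 residues, glycine, lysine, then serine or threonine) occurred once in VMA1, at codons 257 to 264, with 19 codons between it and the intein. The stretches are shown because they place the catalytic loop and the segment that is translated but removed. Capitals mark the Walker A codons in the first and intein codons in the other two. They lie on the plus strand of chromosome IV, at chrIV:127540-127593, chrIV:127606-127665 and chrIV:128968-129027.
VMA1 Walker A: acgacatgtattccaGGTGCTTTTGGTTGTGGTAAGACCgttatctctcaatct
VMA1 intein start: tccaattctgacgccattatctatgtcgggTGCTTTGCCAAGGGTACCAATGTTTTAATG
VMA1 intein end: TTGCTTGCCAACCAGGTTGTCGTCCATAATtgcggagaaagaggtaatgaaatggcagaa

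VMA10 (YHR039C-A, chromosome VIII, 187173 to 187679, minus strand) has 2 exons, and the first is the start codon alone, with 3 nt. An intron of 162 nt separates it from the second exon of 342 nt, so a footprint over the start codon and any later codon spans the junction. How such reads were placed is not given in the sources used here. The intron begins with GT, ends with AG and holds 1 copy of TACTAAC, the usual yeast branch point letters. It is shown with the first 30 nt of the second exon, at chrVIII:187485-187679 on the minus strand, with the intron in capitals.
VMA10 first exon and intron: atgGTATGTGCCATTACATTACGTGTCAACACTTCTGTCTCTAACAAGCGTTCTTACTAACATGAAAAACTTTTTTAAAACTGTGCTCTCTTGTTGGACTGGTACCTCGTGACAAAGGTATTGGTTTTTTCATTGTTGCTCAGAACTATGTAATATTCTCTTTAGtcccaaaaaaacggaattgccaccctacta

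The other members are single exons. VMA2 (YBR127C) lies on chromosome II from 491269 to 492822 on the minus strand. VMA4 (YOR332W) lies on chromosome XV from 943656 to 944357, and VMA5 (YKL080W) on chromosome XI from 285030 to 286208, both on the plus strand. VMA7 (YGR020C) lies on chromosome VII from 526973 to 527329 on the minus strand. VMA8 (YEL051W) lies on chromosome V from 58378 to 59148, and VMA13 (YPR036W) on chromosome XVI from 643836 to 645272, both on the plus strand. The layout of the genes, with the intein, the intron and open reading frames on the opposite strand, is drawn to scale from the start codon.

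**Figure D1:**
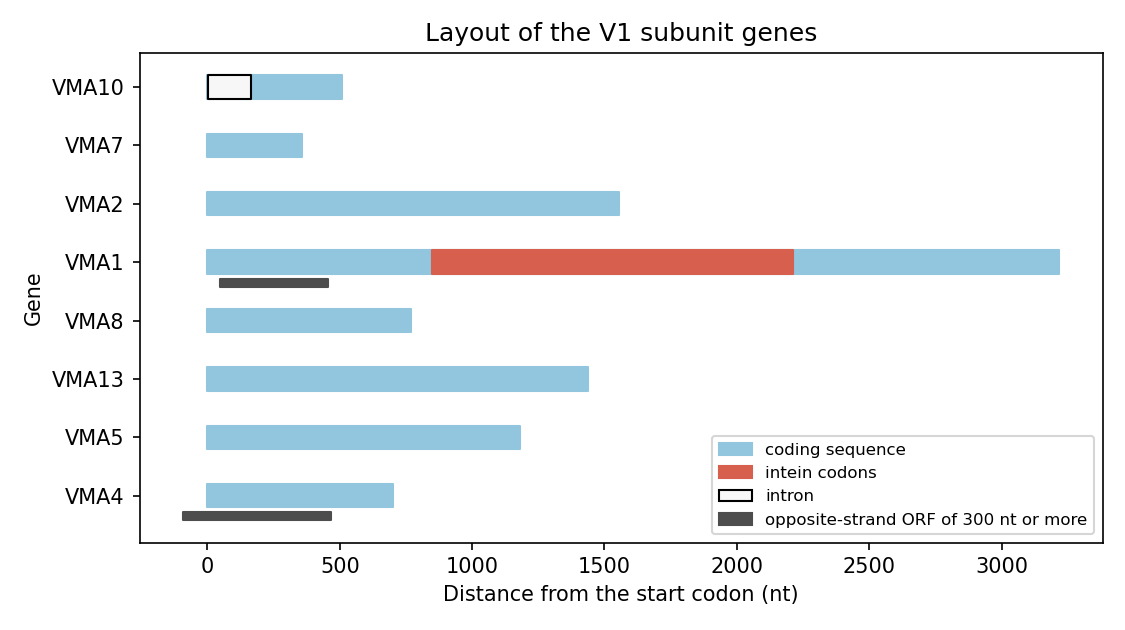
Layout of the 8 V1 genes, with distance from the start codon in nt on the x axis and 1 gene per row on the y axis, ordered by read density. Blue bars are coding sequence, the red block is the VMA1 intein of 1362 nt, the white block the VMA10 intron of 162 nt, and dark bars are ATG-started reading frames of at least 300 nt on the opposite strand, which lie over VMA4 and VMA1.

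V1 genes were among those with the densest footprints in the cell, with VMA4 as the exception. Levels were compared between genes as reads per kilobase of coding length, divided by CDS reads in units of 1000000 (RPKM), computed from the deposited counts. More mRNA and more ribosomes per mRNA cannot be told apart from footprints alone. The median over the 5993 CDSs with a known length was 22.0 RPKM in replicate 1 and 12.6 RPKM in replicate 2. The median V1 gene had 614 and 717 RPKM. Apart from VMA4, each member stood at percentile 91.3 or above in both libraries.

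VMA10, the G subunit of the stalks, had the highest density of the 8. Its 17026 reads in replicate 1 and its 2253 in replicate 2 came to 2106 and 2389 RPKM (2247 ± 200.3, SD, n = 2), and ranked 123 of 5993 CDSs by its mean. VMA7, the rotor subunit F, came next with 11153 and 937 reads, or 1333 and 960 RPKM (1147 ± 264). Its libraries lay farther apart in RPKM than those of any other member. These are the shortest members, with 345 and 357 nt of coding sequence.

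The ring subunits followed closely on each other. VMA2, the B subunit, had 27832 and 3263 reads, or 764 and 768 RPKM (766 ± 2.80), and the libraries were nearly equal. VMA1, the A subunit, had the most reads of any member, 47052 and 6313, but over its long coding sequence this came to 624 and 718 RPKM (671 ± 66.4). VMA1 therefore had 0.817 times the density of VMA2 in replicate 1 (95% counting interval 0.805 to 0.829) and 0.935 times in replicate 2 (0.896 to 0.975). Both genes provide the same number of copies.

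VMA8 lay beside VMA1, and the H and C subunits were lower. VMA8, the shaft subunit D, had 10927 and 1507 reads, or 605 and 715 RPKM (660 ± 78.0). VMA13, the H subunit, had 13610 and 1393 reads, or 404 and 355 RPKM (379 ± 35.0). VMA5, the C subunit that leaves V1 on disassembly, had 8159 and 989 reads, or 295 and 307 RPKM (301 ± 8.20). Together the 8 genes took 0.582% of CDS reads in replicate 1 (Wilson interval at 95%, 0.579% to 0.585%) and 0.613% in replicate 2 (0.604% to 0.623%). The mean share was 0.598% ± 0.0224 (SD, n = 2). PMA1, the proton pump of the plasma membrane and a single polypeptide, took 0.128% and 0.0829%.

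The order of densities was VMA10, VMA7, VMA2, VMA1, VMA8, VMA13, VMA5 and VMA4, and it was the same in both libraries. Neighbours in this order were compared by a two-sided exact binomial test of their counts against their coding lengths, in each library, with Benjamini-Hochberg adjustment over 14 tests of 7 pairs. In 6 of the 7 pairs both libraries separated the neighbours, and their values did not overlap. VMA1 and VMA8 were separated in replicate 1 and not in replicate 2, and their ranges overlapped. Their density ratio was 1.03 in replicate 1 (adjusted p = 0.00289, exact binomial test) and 1.00 in replicate 2 (adjusted p = 0.897). The narrowest of the separated pairs was VMA2 over VMA1, at 1.22 and 1.07 (adjusted p = 0.0022 in replicate 2, exact binomial test). These tests cover counting error within a library and do not correct for differences in how footprints of each gene are recovered.

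**Figure D2:**
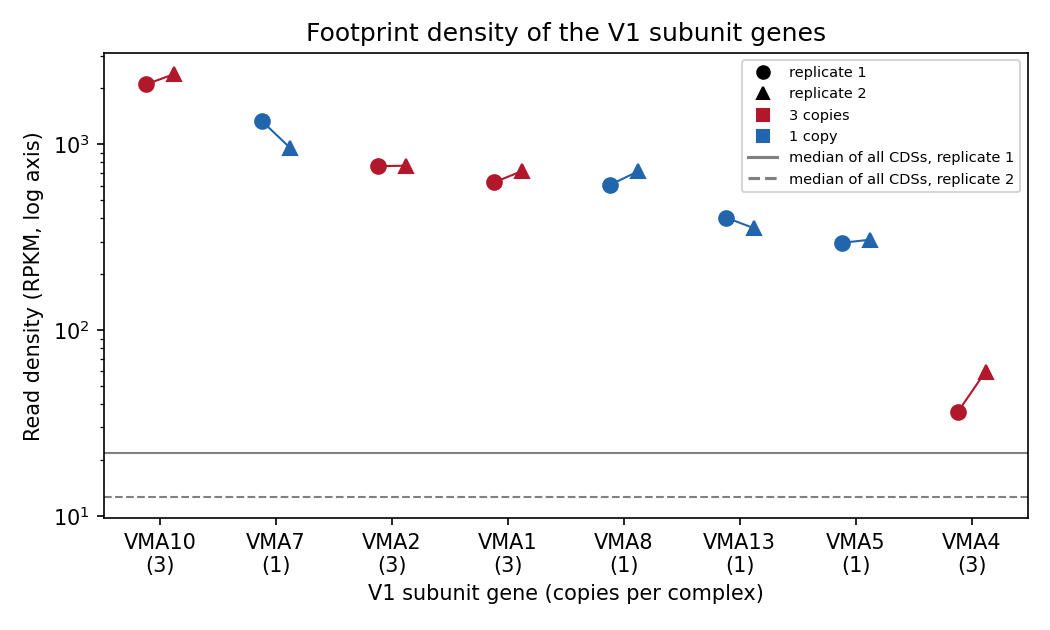
Read density of the 8 V1 genes in RPKM on a log axis, with 1 circle for replicate 1 and 1 triangle for replicate 2, red for subunits with 3 copies per complex and blue for those with 1, and grey lines at the median of all CDSs. VMA10 is highest at 2106 and 2389 RPKM, VMA4 is lowest at 36.2 and 59.9 RPKM, and both colours occur at high and low density.

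VMA4, the E subunit that pairs with the G subunit in each stalk, stood far below its partners. It had 596 and 115 reads, or 36.2 and 59.9 RPKM (48.1 ± 16.8), at percentiles 60.6 and 77.0 of all CDSs. VMA10 had 58.1 times its density in replicate 1 (95% counting interval 53.6 to 63.1) and 39.9 times in replicate 2 (33.1 to 48.1), although E and G are present in equal copies. Even VMA5, the next gene in the order, had 8.15 and 5.12 times the density of VMA4.

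VMA4 is also the member with the largest overlap by a reading frame on the other strand. An ATG-started frame of 558 nt runs on the minus strand of chromosome XV from 943565 to 944122 and lies opposite 467 of the 702 nt of VMA4, or 66.5%. VMA1 has such a frame of 408 nt over 12.7% of its coding length, and the other 6 members have none of at least 300 nt. The CDS table lists YOR331C, a name between MIP1 (YOR330C) and VMA4 (YOR332W) in the systematic order and marked as minus strand. It was listed at 0 in both libraries, is not in the R64 annotation used here, and has no position in the files. The edge of the frame within VMA4 is shown at chrXV:944093-944152 on the plus strand, with the overlapped part in capitals, which ends on the complement of the opposite start codon.
VMA4 edge: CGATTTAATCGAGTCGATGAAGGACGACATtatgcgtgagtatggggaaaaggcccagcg

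Genes that overlap another annotated gene were often listed at 0 in this table. Of 81 CDSs with at least 50% of their length covered by another annotated CDS on either strand, 75, or 92.6%, were listed at 0 in both libraries. Of 5775 CDSs with no overlap, 5.32% were. Overlaps on the same and on opposite strands were not separated, and repeated genes were not set apart. VMA4 overlaps no annotated CDS of R64. Among 157 CDSs with at least 50% of their length opposite an ATG-started frame of 300 nt or more, annotated or not, 28.7% were at 0, against 6.70% of the other 5836. The median density of those 157 was nevertheless 25.1 and 14.5 RPKM, slightly above the 21.9 and 12.6 RPKM of the others. Those 157 were shorter, with a median of 531 nt against 1230 nt, and length was not matched. CDSs opposite an annotated gene were not set apart, so the share at 0 is not specific to unannotated frames. These classes were chosen after the value of VMA4 was seen. If the reads of VMA4 are spread over the 235 nt outside the frame, its density becomes 108 and 179 RPKM, which is still the lowest of the members. The part of overlap in the low count of VMA4 was not tested. Without VMA4 the median V1 density was 624 and 718 RPKM, and the V1 share of CDS reads was 0.579% and 0.609%.

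Read density did not follow the 3-to-1 copy number when all members were counted. The geometric mean density of the 4 subunits with 3 copies was 0.784 times that of the 4 with 1 copy in replicate 1 (95% counting interval 0.767 to 0.802) and 1.01 times in replicate 2 (0.959 to 1.07), with a mean of 0.899 ± 0.162 (SD, n = 2). Without VMA4 the ratio was 1.80 (1.78 to 1.82) and 2.10 (2.03 to 2.17), and with VMA4 over its 235 nt it was 1.03 and 1.33. By medians in place of geometric means, with VMA4 kept, it was 1.38 and 1.39. The value thus turns on a single gene and on the way members are averaged, and in none of these versions did it reach 3. The members are not replicates of a copy class, so no test across them was made.

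Divided by copies per complex, the order of the members changed. VMA7 had 1147 RPKM per copy, VMA10 had 749 and VMA8 had 660. VMA13 had 379, VMA5 had 301, VMA2 had 255, VMA1 had 224 and VMA4 had 16.0. Both ring subunits thus fell below VMA5 per copy, and VMA10 remained among the highest. Against VMA5 alone, VMA2 had a density ratio of 2.59 and 2.50, VMA1 of 2.11 and 2.34 and VMA8 of 2.05 and 2.33.

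Several sequence features that were not used to choose the members were computed, and the members varied in codon use and GC content. The codon adaptation index, which measures how far a gene uses the codons preferred by a reference set, was computed against 138 ribosomal protein genes. It exceeded the 90th percentile of all CDSs in 5 of the 8, and the median CDS had 0.220. VMA2 had the highest index, 0.474, followed by VMA10 with 0.472, and VMA13 had the lowest, 0.256, at percentile 73.6. VMA4 had 0.341, at percentile 88.9, above VMA5 with 0.329, whose density was several times greater. GC content ranged from 38.4% in VMA5 to 44.6% in VMA13, around a median CDS of 39.8%. Of all stretches of 28 nt in the coding sequences, about the length of a footprint, 0 occurred a second time in the genome for any member, so reads of that length with no mismatch had 1 possible origin. No such value is given for other CDSs.

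The start codons are shown because ribosomes enter each gene there, with 12 nt before the ATG and the next 9 nt of spliced coding sequence on the strand of the gene, and with the ATG in capitals. They are listed from the highest density to the lowest. An A stood 3 nt before the ATG in 7 of the 8, and VMA2 had a G there. Of all CDSs 60.9% have an A at that place. The Walker A pattern was found in VMA1 and once in VMA13, and in 5.44% of all CDSs, so a match alone marks no nucleotide site.
VMA10: atacaaagcagaATGtcccaaaaa
VMA7: agtaactaaatcATGgctgagaaa
VMA2: aatattgcaggaATGgttttgtct
VMA1: agaaaagaaacaATGgctggtgca
VMA8: aaaggttcaaaaATGtctggtaat
VMA13: atttcaggaacaATGggcgcaacc
VMA5: tgaaaaaaaaaaATGgctactgcg
VMA4: atccgatacagcATGtcctccgct

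The ratio of replicate 2 to replicate 1 was above the median of all CDSs for each V1 gene. The libraries were compared by a two-sided exact binomial test per CDS on its 2 counts, given the CDS totals, adjusted over the 5131 CDSs that averaged 10 reads or more; it compares these libraries and not conditions. The median log2 ratio of replicate 2 to replicate 1, with 1 CPM added to both, was -0.61 over all tested CDSs and 0.12 over V1, and all 8 members lay above the median of all. Without VMA4 the V1 median was 0.06. Above that median also lay 5 of 5 genes of F1 and 7 of 8 of the CCT chaperonin, complexes described further on, so this is no mark of V1. Of the 20S proteasome core 8 of 14 genes lay above it, and of V0 5 of 7. Among the genes for pump assembly 4 of 8 did, and among vacuolar hydrolases 5 of 8. By CDS totals 4 members were higher, 2 were lower and 2 were not called. Over all tested CDSs 7.25% were called higher and 63.9% lower, or 71.2% in either direction.

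The members called higher by CDS totals were VMA4, VMA8, VMA1 and VMA10. VMA8 had 466 and 551 CPM, a ratio of 1.18 (95% exact interval 1.12 to 1.25, adjusted p = 8.8e-09, exact binomial test). VMA1 had 2008 and 2309 CPM, a ratio of 1.15 (1.12 to 1.18). VMA10 had 726 and 824 CPM, a ratio of 1.13 (1.09 to 1.19). VMA4 had the widest ratio, 1.65 (1.34 to 2.02), on 25.4 and 42.1 CPM.

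The rotor subunit VMA7 went the other way by totals, with 476 and 343 CPM and a ratio of 0.720 (0.673 to 0.770, adjusted p = 7.29e-23, exact binomial test). VMA13 had 581 and 510 CPM and a ratio of 0.878 (0.830 to 0.927). VMA2 had 1188 and 1194 CPM (ratio 1.01, 0.969 to 1.04), and VMA5 had 348 and 362 CPM (1.04, 0.972 to 1.11). The direction of VMA7 and VMA13 depends on the scaling, because most CDSs were lower in replicate 2. With edgeR's TMM scaling, which moves all log2 ratios up by 0.60, all 8 were higher, as they were with DESeq2's size factors. TMM called 24.3% of all tested CDSs higher and 20.1% lower, and size factors called 25.7% higher and 18.4% lower. VMA7 then had a ratio of 1.09 and VMA13 of 1.33 under TMM.

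**Figure D3:**
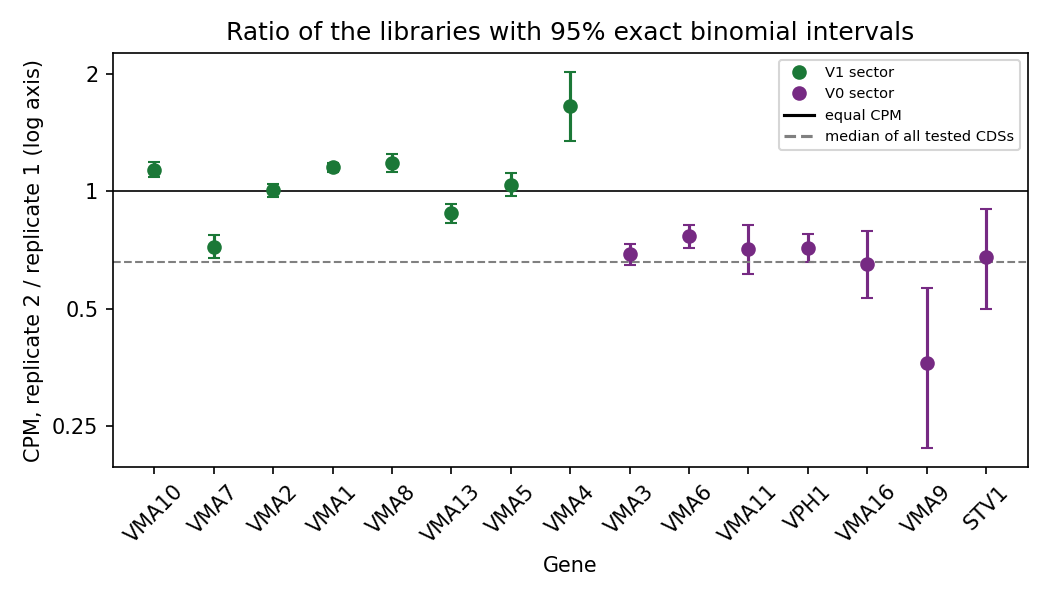
Ratio of CPM in replicate 2 to replicate 1 on a log axis for the 8 V1 genes (green) and 7 V0 genes (purple), with bars for 95% exact binomial intervals, a black line at equal CPM and a dashed line at the median of all tested CDSs, 0.657. The V1 genes sit above the dashed line, from 0.720 for VMA7 to 1.65 for VMA4, and 6 of the V0 genes sit within 0.651 to 0.766, with VMA9 at 0.363.

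By CDS totals the median ratio of the membrane sector genes was lower than that of V1 and near that of all CDSs. V0 was described through 7 genes, a list that may not hold every subunit of the sector. VMA3, VMA11 and VMA16 encode c, c' and c'' of the proteolipid ring. The proton channel subunit a comes from VPH1 in the vacuole and from STV1 in the Golgi and endosomes. VMA6 encodes d and VMA9 encodes e. By CDS totals all 7 were lower in replicate 2 and 0 were higher, also at an unadjusted p under 0.05 in the exact binomial test. Over all tested CDSs 63.9% were lower and 7.25% higher. With TMM scaling VMA6 was higher, VMA9 was lower and the other 5 were not called, and with size factors VPH1 was also higher. Of all tested CDSs TMM called 24.3% higher and 20.1% lower, and size factors 25.7% and 18.4%. The median log2 ratio of V0 was -0.53, near that of all CDSs, and 5 of the 7 lay above the latter. No test between the sectors was made, since the genes of a sector are not replicates.

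V0 genes covered a wide range of density. VMA3, which provides most of the ring, had 1204 and 832 RPKM, of the order of VMA7. VMA6 had 401 and 307 RPKM, VMA11 had 220 and 157, VPH1 had 119 and 85.5, and VMA16 had 97.2 and 63.2. VMA3 had 5.47 and 5.31 times the density of VMA11 and 12.4 and 13.1 times that of VMA16, of which the ring holds 1 copy each. The vacuolar isoform VPH1 had 11.4 and 12.02 times the density of STV1, which had 10.5 and 7.12 RPKM. VMA9, whose CDS is split into 3 exons, had 473 and 20 reads. The listed V0 genes took 0.152% and 0.108% of the CDS reads, so V1 took several times more than these in both libraries.

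The factors that build or rejoin the pump were read less than V1, with exceptions. VMA12 (annotated as VPH2), VMA21, VMA22 and PKR1 act in the assembly of V0 in the endoplasmic reticulum, where VOA1 assists, and RAV1, RAV2 and SKP1 form the RAVE complex, which brings V1 and V0 together. Of the 8 genes, 6 were lower in replicate 2 by CDS totals, beside 63.9% of all tested CDSs. SKP1 was higher, beside 7.25% of all, and RAV2 was not called. With TMM scaling SKP1 was higher, VMA21 was lower and the other 6 were not called. Over all tested CDSs TMM called 24.3% higher and 20.1% lower. VOA1 had 169 and 123 RPKM, PKR1 had 102 and 54.5, VMA22 had 81.4 and 40.2, and VMA12 had 18.6 and 11.3. VMA21 had 804 and 266 RPKM, within the range of V1 in both libraries, but in replicate 2 below each member except VMA4. SKP1, which is also part of ubiquitin ligases, had 464 and 647 RPKM. RAV1 had 5.62 and 3.77 RPKM and RAV2 had 7.43 and 4.85, both below the median CDS.

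Hydrolases that work in the acid vacuole were read far less than V1. The 8 genes had medians of 59.6 and 57.5 RPKM and took 0.0832% and 0.0851% of the CDS reads. By CDS totals 2 were higher and 3 lower in replicate 2, beside 7.25% and 63.9% of all tested CDSs. With TMM scaling 4 were higher and 2 lower, beside 24.3% and 20.1% of all. PEP4, the protease that activates many of the others, had 94.5 and 139 RPKM, and PRB1, protease B, had 126 and 173. These were the 2 higher genes, with ratios of 1.47 (1.33 to 1.62) and 1.37 (1.28 to 1.47), and they were also higher with TMM scaling. CPS1, a carboxypeptidase, had 18.6 and 7.19 RPKM, and APE3, an aminopeptidase, had 125 and 71.4; both were lower by totals and by TMM, and by size factors CPS1 was lower and APE3 was not called. PHO8, the vacuolar alkaline phosphatase, had 29.6 and 23.2 RPKM and was lower by totals alone. PRC1, carboxypeptidase Y, had 75.9 and 72.3 RPKM, and LAP4 (annotated as APE1), an aminopeptidase, had 43.2 and 43.6; neither was called by totals and both were higher with the other scalings. DAP2, a dipeptidyl aminopeptidase, had 67 and 3 reads and was not called by totals.

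The spread of density within V1 was set beside that of other complexes. The SD of log2 RPKM over members was 1.77 and 1.56 for V1, and 0.970 and 0.977 without VMA4. It was 0.364 and 0.676 for the 8 subunits of the CCT chaperonin and 0.599 and 0.763 for the 14 subunits of the 20S proteasome core, which hold each subunit in equal copies. V0, the other sector of the same pump, had a wider spread than V1, 2.12 and 2.23. In F1 of the mitochondrial ATP synthase, a related rotary enzyme with the same 3-to-1 arrangement, it was 0.508 and 0.431. The highest and lowest members of V1 differed 58.1-fold and 39.9-fold, or 7.13-fold and 7.79-fold without VMA4, against 1.98-fold and 3.41-fold in CCT, 4.07-fold and 6.01-fold in the 20S core and 2.50-fold and 2.09-fold in F1. In V0 the range was 114-fold and 117-fold. These are descriptions of lists of unequal size and carry no test. Between the libraries, 3 of 5 F1 genes, 4 of 8 CCT genes and 11 of 14 genes of the 20S core were lower by CDS totals, beside 63.9% of all tested CDSs. CCT6 and PRE8 were the members called higher, beside 7.25% of all. With TMM scaling, which moves all ratios alike, 3 F1 genes, 5 CCT genes and 6 genes of the 20S core were higher and 0, 0 and 5 were lower (0 also at an unadjusted p under 0.05, exact binomial test), beside 24.3% and 20.1% of all.

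F1 gave a copy ratio that also lay below 3. ATP1 and ATP2, its ring subunits, had 197 and 131 RPKM in replicate 1 and 180 and 124 in replicate 2. Against ATP3, ATP15 and ATP16, with 1 copy each, the ratio of geometric means was 0.793 (95% counting interval 0.768 to 0.818) and 0.907 (0.821 to 1.00). As in V1 one of the smallest subunits, here ATP15 with 328 and 244 RPKM, had the highest density.

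**Figure D4:**
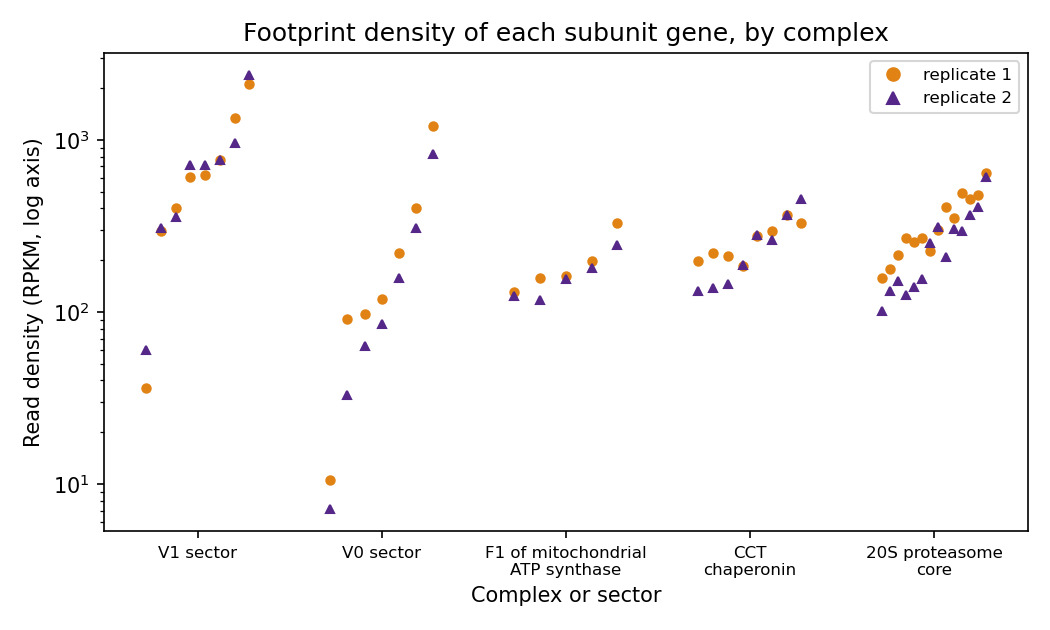
Read density of each subunit gene in RPKM on a log axis for V1, V0, F1, the CCT chaperonin and the 20S proteasome core, ordered by mean within each, with circles for replicate 1 and triangles for replicate 2. V1 runs from 36.2 to 2389 RPKM, with VMA4 apart at the low end, whereas CCT runs from 132 to 450 RPKM.

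Few reads lay in open reading frames between genes beside the V1 genes. The series also counted reads in 78989 intergenic open reading frames (IGORFs), of which 84 lie within 200 nt of a V1 gene on either strand. Of these 2.38% had a read in replicate 1 and 8.33% in replicate 2, against 2.07% and 4.89% of all IGORFs. They held 3 and 19 reads in all, beside 136355 and 16770 in the V1 coding sequences. Most lay before VMA7. On its strand, the IGORF on chromosome VII from 527384 to 527452, which ends 54 nt before the start codon, had 2 and 7 reads, and the one from 527392 to 527529, 62 nt before it, had 0 and 6. These frames overlap, so a read may have been counted in both. No IGORF near VMA4 had a read in either library, where a count of 0 allows up to 3 reads. Relative to CDS reads, IGORF counts as a whole were much higher in replicate 2, and if the IGORF tables of the replicates were exchanged the 84 frames would have 0.811 and 1.10 CPM in place of 0.128 and 6.95 CPM, relative to the CDS totals.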

How the data were processed

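Ribosome footprints were sequenced from 2 libraries of 1 group, made with a TruSeq Small RNA kit per the labels. The deposited values are raw counts per CDS and per IGORF, per the file headers. Cutadapt, Bowtie, SAMtools and the build sacCer3 are named, per the submitters' processing notes; the counting tool, the annotation, the length selection and the treatment of reads over overlapping genes, over splice junctions or at several positions were not given in the sources used here, and each can change the count of a gene. Symbols, positions and coding lengths came from RefSeq R64, where 5993 of 6666 CDS identifiers were found; sequences were read from its genome.

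CPM and RPKM used the total of CDS counts. Intervals are 95% Wilson, exact binomial or, for density ratios, Poisson intervals on the log scale; they cover counting error alone, because no molecular identifiers are named and PCR copies are not separate molecules. Libraries were compared with exact binomial tests because 1 group leaves no contrast for edgeR's test (threshold 0.05, Benjamini-Hochberg adjustment). In simulated counts for this comparison over 5089 to 5101 CDSs the test recovered 59.5% of 200 CDSs changed 1.5-fold, 88% at 2-fold and 98.5% at 4-fold. The simulated counts held Poisson error alone, all changes were increases, and at most 0.143% of unchanged CDSs were called. In the libraries themselves 71.2% of tested CDSs were called, so the simulated rates do not carry over to them. Members and lists were chosen with earlier results of these data known. Genes that could be named were the members and the genes of the lists of V0, assembly and RAVE, hydrolases, F1, CCT and 20S core subunits, PMA1 and strain markers; of the CCT and 20S lists only the genes called higher are named. Alternatives changed scaling (edgeR 4.0.16 TMM, DESeq2 1.42.0 size factors), minimum count, pseudocount, length, averaging, libraries and distance; those without VMA4 or with its shortened length were added after seeing the data. Python 3.11.15, numpy 2.4.6, scipy 1.17.1, pandas 2.3.3, Biopython 1.88, matplotlib 3.10.9 and R 4.3.3 were used.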

Additional observations from a re-analysis of the deposited data

How the results depend on the processing

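Scaling decided the direction of calls between the libraries. With TMM or DESeq2's size factors 8 V1 members were higher and 0 lower in replicate 2 (also 0 at an unadjusted p under 0.05), in place of 4 and 2, and the median log2 ratio of V1 was 0.71 or 0.74 in place of 0.12; without VMA4 it was 0.06. Over all tested CDSs totals called 7.25% higher and 63.9% lower, TMM 24.3% and 20.1%, and size factors 25.7% and 18.4%. Of the 23 genes of V0, assembly and hydrolases, 10 differed with either scaling in place of 19. With TMM 6 were higher and 4 lower, and with size factors 7 and 3, in place of 3 and 16. Minimum counts and the pseudocount changed no count or direction among these.

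The density ratio of 3-copy to 1-copy members, 0.899, was 0.784 to 1.01 in single libraries. It was 1.38 by medians, 1.48 by summed reads and 1.95 without VMA4. With coding length less 27 nt it was 0.897, and with the genomic span including introns 0.817. With the intein taken from the length of VMA1 but all its reads kept, it was 1.03. With all reads of VMA4 placed on its part outside the opposite frame, it was 1.18. The SD of log2 density was 0.974 without VMA4, in place of 1.66. Single libraries gave a V1 share of 0.582% to 0.613%, an SD of log2 density of 1.56 to 1.77 and 6 to 7 separated neighbours. With the IGORF tables exchanged, reads near V1 genes came to 0.811 and 1.10 CPM in place of 0.128 and 6.95. A ratio between the libraries cannot be had with a library left out. No paired analysis was possible because there is 1 group. VMA4 and VMA9 in replicate 2, with 115 and 20 reads, are limited by depth. So are other named genes in that library, among them RAV2 with 14 reads, CPS1 with 34, STV1 with 52 and VMA16 with 111.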
